A study of Mus musculus with 2 samples.

Results

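Thin limb cells were taken from single-cell RNA counts of mouse kidney cortex at 16 weeks of age, from 1 library labelled PT I-PpoI and 1 labelled wild type. Per the series title, the PT I-PpoI kidney expressed I-PpoI, a homing endonuclease that cuts DNA, specifically in the epithelium of the proximal tubule (PT), so the thin limb is not the segment named as the site of expression. The labels give neither the promoter that drives the transgene nor the number of animals behind a library, and the transgene itself was not analysed here. A barcode was kept with at least 1000 unique molecular identifiers (UMIs), at least 200 genes and at most 50% mitochondrial UMIs. It was a thin limb member if at least 2 of the 6 genes Fst, Bst1, Slc14a2, Lypd2, Corin and Slc4a11 had a UMI, Slc12a1 was below 8 and Aqp2 below 10 UMIs per 10000, and Pecam1, Ptprc and Cd79a were at 0. This rule gave 112 members of 15488 kept barcodes, 62 of the 5076 PT I-PpoI barcodes and 50 of the 10412 wild-type barcodes. Each group had 1 library, so the groups were compared without a test, and genotype, animal, dissociation and library cannot be told apart. All intervals below are 95% intervals for counting error only. Where a pair of values is given, the first is from PT I-PpoI and the second from wild type. A ratio is the log2 of the PT I-PpoI level divided by that of wild type unless another comparison is named.

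The thin limbs of the loop of Henle are flat tubule segments that link the proximal straight tubule to the thick ascending limb and take part in the countercurrent system that concentrates urine. The descending thin limb passes water through aquaporin-1, and the urea transporter UT-A2, encoded by Slc14a2, is known from descending limbs of short loops. These cells lie mainly in the medulla, where high osmolality is met with chaperones such as alpha-B-crystallin and with enzymes that build organic osmolytes, so a cortex preparation holds few of them.

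The libraries held 93257620 and 107977310 UMIs, and kept barcodes had a median of 11633 and 3344 UMIs. Members were deeper than the other kept barcodes in both libraries, with a median of 20762.5 UMIs (2946 to 70355) against 11588 in PT I-PpoI and 5560 (1026 to 51454) against 3331 in wild type. Because a rule that asks for UMIs of 2 genes is met more easily by a deep barcode, the number of members moves with depth. Members made up 1.22% (0.938 to 1.56%) and 0.48% (0.357 to 0.633%) of kept barcodes. Applied after each barcode was thinned to 1000 UMIs, the rule found 24 and 27 members, or 0.473% and 0.259%. The denominator also moved, since 182 and 4018 barcodes read at least 3 of 6 PT genes; of the barcodes without them, 1.27% and 0.782% were members. The median mitochondrial share of members was 5.68% and 6.39%, against 32.4% and 31.9% in barcodes of the thick ascending limb, which were defined by Slc12a1 at or above the same limit of 8 per 10000. The 2 libraries shared 19 kept barcodes, none of them a member, and Scrublet marked no member as a doublet.

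Genes outside the rule bore out the label. Aqp1, the water channel of the descending thin limb (chr6:55336432-55348555 in mm10), stood at 3380 and 4892 CPM (counts per 1000000 UMIs summed over members), against 129 and 162 CPM in the other kept barcodes. Cryab, which encodes alpha-B-crystallin (chr9:50751325-50756636), stood at 10171 and 9373 CPM against 439 and 301, and every member had at least 1 UMI of it. After thinning to 1000 UMIs, Cryab was still read in 93.5% and 100% of members, against 5.84% and 6.13% of thick ascending limb barcodes and 8.57% and 12.4% of endothelial barcodes. Of the 9 thin limb markers that the rule did not use, 6 were at least 2-fold higher in members than in the other kept barcodes in both libraries, and across all 14606 genes with enough UMIs to compare 6.24% were. Akr1b3, the aldose reductase that makes sorbitol, reached 1143 and 460 CPM against 182 and 74.6.

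Just inside the threshold, the 23 and 22 members with exactly 2 rule genes held 1741 and 5930 CPM of Aqp1 and 17966 and 10150 CPM of Cryab. Just outside it, the 107 and 74 barcodes with 1 rule gene held 15.8 and 258 CPM of Aqp1 and 1563 and 2264 CPM of Cryab. A further 30 and 7 barcodes had at least 2 rule genes but were barred by the other conditions, with Slc12a1 barring 16 of the 30 and 2 of the 7. Of the members themselves, 4 from PT I-PpoI and 1 from wild type had fewer than 20 Cryab UMIs per 10000, and 4 PT I-PpoI members with Fst or Lypd2 had no Aqp1.

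Markers of other cell types were low but not absent in members. The 6 thick ascending limb markers summed to 7.63 and 4.07 UMIs per 10000 over members (0 to 119 and 0 to 35.6 in single members), with 4 and 6 members at 20 or more, against 127 and 31.2 in the other barcodes, and Cldn16 was at 0 in wild type. Slc12a1, 1 of the 6, was held below 8 per 10000 by the rule, which lowers that sum. The 4 connecting tubule markers summed to 6.32 and 4.70 per 10000 (0 to 152 and 0 to 104), against 55.9 and 32.6 in the other barcodes, with Slc8a1 at 0 in both libraries. They were highest in the Fst/Lypd2 set, at 9.01 and 16.3. The 6 principal cell markers, of which the rule capped Aqp2, summed to 1.89 and 1.05, the 3 markers of the distal convoluted tubule to 1.11 and 0.0332, and the 5 of intercalated cells to 1.43 and 1.69. The 8 PT markers summed to 0.25 UMIs per 10000 (0 to 8.95) in PT I-PpoI members, where Slc34a1, Slc22a6 and Slc13a3 were at 0. In wild-type members all 8 were read and summed to 6.22 (0 to 87.4). The 6 endothelial markers summed to 0.115 and 0.597 per 10000, with Pecam1 at 0 by the rule, and the 6 fibroblast and mural markers to 1.18 and 0.0166, where a single PT I-PpoI member reached 165 per 10000. The 6 markers of the parietal epithelium summed to 3.27 and 4.95 per 10000 in members, above the 0.780 and 0.561 of the other barcodes, with Wt1 and Dkk3 at 0 in wild type. Their part in the results below was not tested. Markers of the macula densa (Nos1, Ptgs2) and of cycling cells (Mki67, Top2a) were at 0 in all members, as was Nphs1 of podocytes.

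**Figure D1:**
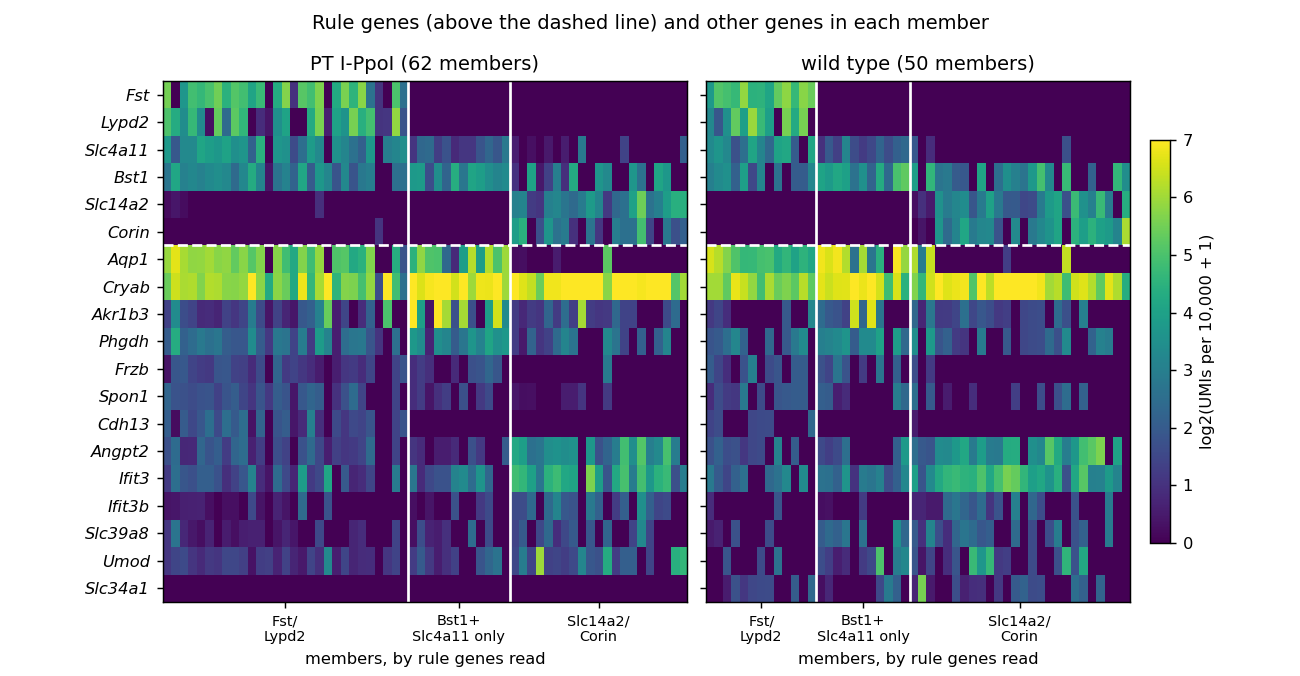
Each column is 1 member and each row 1 gene, coloured by log2(UMIs per 10,000 + 1), with the colour scale ending at 7; white lines part the members by which rule genes were read. Fst and Lypd2 do not share members with most of the Slc14a2 and Corin signal, Aqp1 is read in only 4 of 21 and 5 of 26 Slc14a2/Corin members, and Cryab is present in all members of both libraries.

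The members were not uniform. The rule genes parted them into 3 sets, which are defined by the rule genes themselves and were chosen after the values were seen. In 29 and 13 members Fst or Lypd2 was read (the Fst/Lypd2 set). In 21 and 26 members Slc14a2 or Corin was read without Fst or Lypd2 (the Slc14a2/Corin set). In 12 and 11 members only Bst1 and Slc4a11 were read (the Bst1/Slc4a11 set). The Fst/Lypd2 set made up 46.8% (34.0 to 59.9%) of PT I-PpoI members and 26.0% (14.6 to 40.3%) of wild-type members, and the Slc14a2/Corin set 33.9% (22.3 to 47.0%) and 52.0% (37.4 to 66.3%). Depth differed with the set and library: the median was 31304 and 5038 UMIs in the Fst/Lypd2 set and 8619 and 6169 in the Slc14a2/Corin set, and its part in these shares was not tested.

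Fst encodes follistatin, a secreted inhibitor of activin, and stood at 2489 and 2666 CPM within the Fst/Lypd2 set. Lypd2, a small Ly6-family surface protein, stood at 1637 and 1366 CPM there. Corin, the protease that activates atrial natriuretic peptide, stood at 798 and 594 CPM within the Slc14a2/Corin set, and Slc14a2 at 701 and 556 CPM. Bst1, a surface enzyme of NAD turnover, was read across all 3 sets, at 804 and 751 CPM in the Fst/Lypd2 set, 484 and 825 CPM in the Slc14a2/Corin set and 1006 and 1419 CPM in the Bst1/Slc4a11 set. Slc4a11, a membrane transporter of the bicarbonate transporter family, was highest in the Fst/Lypd2 set at 962 and 915 CPM, and stood at 51.0 and 55.9 CPM in the Slc14a2/Corin set.

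The water channel followed the sets. Aqp1 was read in 25 of 29 and 13 of 13 members of the Fst/Lypd2 set and in 12 of 12 and 10 of 11 members of the Bst1/Slc4a11 set, but in 4 of 21 and 5 of 26 members of the Slc14a2/Corin set. Its median in the Fst/Lypd2 set was 38.9 UMIs per 10000 (0 to 103) and 24.97 (15.4 to 93.7), and its median in the Slc14a2/Corin set was 0 in both libraries (0 to 36.4 and 0 to 83.5). After thinning to 1000 UMIs, Aqp1 was read in 4.76% (0.12 to 23.8%) and 15.4% (4.36 to 34.9%) of the Slc14a2/Corin set, against 0.569% and 1.60% of thick ascending limb barcodes, a segment that lacks this channel. The interval of the PT I-PpoI share holds the thick limb value, while that of wild type lies above it. The 2017 CPM of Aqp1 in the wild-type Slc14a2/Corin set came mainly from 3 members above 70 UMIs per 10000, and the PT I-PpoI set held 86.0 CPM.

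Between the Fst/Lypd2 and Slc14a2/Corin sets, 172 of 3787 compared genes (4.54%) were at least 2-fold higher in the first set in both libraries and 207 (5.47%) at least 2-fold higher in the second. Among genes outside the rule, Car14, a membrane-bound carbonic anhydrase, stood at 482 and 353 CPM in the Fst/Lypd2 set against 0 and 3.497 CPM. Ackr3, a scavenging chemokine receptor, stood at 537 and 418 CPM against 8.06 and 14.0. Pcolce, an enhancer of procollagen processing, stood at 399 and 359 CPM against 18.8 and 3.497, and Slc9a3, the sodium-proton exchanger NHE3, at 162 and 189 against 8.06 and 3.497. Spp1, which encodes the secreted phosphoprotein osteopontin, was the most abundant of them, at 15278 and 15400 CPM against 1311 and 843. Agt, the angiotensin precursor, stood at 448 and 425 CPM against 24.2 and 27.97. Ppargc1a, a coactivator of mitochondrial biogenesis, stood at 327 and 333 CPM against 45.7 and 49.0.

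Energy genes and several transport genes leaned to the Fst/Lypd2 set. Of 31 nuclear genes of oxidative phosphorylation, 16 were at least 2-fold higher in it than in the Slc14a2/Corin set in both libraries and none lower, with a median difference of 1.11 and 1.16 on the log2 scale, against -0.22 and -0.20 over all compared genes. Its median mitochondrial share was also higher, at 10.9% and 11.6% against 3.25% and 4.06%. Of 7 water, urea and salt transport genes that could be compared, 4 were higher in the Fst/Lypd2 set and none lower. Of all genes compared between the 2 sets, 4.54% were higher in the Fst/Lypd2 set and 5.47% lower. The urea transporter gene Slc14a2, a rule gene that defines the other set, was not among the 7. It stood at 6.66 and 0 CPM in the Fst/Lypd2 set against 701 and 556 CPM in the Slc14a2/Corin set. Fxyd2, a regulatory subunit of the sodium pump, stood at 7282 and 8357 CPM against 1206 and 1178, and Atp1b1, the beta subunit of that pump, at 4917 and 4913 CPM against 2369 and 1955.

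The Slc14a2/Corin set carried another group of genes. Uncx, a homeobox transcription factor, stood at 234 and 294 CPM against 3.33 and 0 in the Fst/Lypd2 set. Cldn8, a tight junction claudin, stood at 825 and 455 CPM against 69.9 and 45.7. Gstm2, a glutathione transferase, stood at 1276 and 909 CPM against 152 and 26.1. Thbs1, the matrix glycoprotein thrombospondin-1, stood at 900 and 661 CPM against 129 and 105. Angpt2, the secreted ligand angiopoietin-2, had a median of 9.81 and 9.79 UMIs per 10000 in this set against 1.60 and 1.98 in the Fst/Lypd2 set, although single members of the sets overlapped. Gdf15, a stress-responsive cytokine, stood at 1230 and 1014 CPM against 243 and 261.

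Activin and bone morphogenetic protein (BMP) signalling genes differed between these sets beyond Fst. Of 12 genes of that list that could be compared, 5 were at least 2-fold higher in the Slc14a2/Corin set in both libraries and none in the Fst/Lypd2 set. Of all compared genes 5.47% and 4.54% were. Fstl1, a secreted follistatin-like protein, stood at 285 and 238 CPM against 30.0 and 26.1, and the BMP ligand gene Bmp3 at 124 and 83.9 against 6.66 and 0. Id1 and Id3, transcription factor genes known to respond to BMP signals, stood at 1383 and 972 CPM against 293 and 124, and at 3135 and 1944 CPM against 1041 and 490. Jag1, a Notch ligand gene, stood at 438 and 252 CPM against 114 and 84.9.

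The Bst1/Slc4a11 set had its own levels. Akr1b3 reached 5868 and 1156 CPM there, against 339 and 111 CPM in the Fst/Lypd2 set and 478 and 248 CPM in the Slc14a2/Corin set. Single members of the set ran from 0 to 155 and from 0 to 102 Akr1b3 UMIs per 10000, so a few high members carried the sum. The Cryab sum was also highest there, at 23627 and 12176 CPM. It was 6272 and 6077 CPM in the Fst/Lypd2 set and 12167 and 9535 CPM in the Slc14a2/Corin set. A single PT I-PpoI member held 2326 of the 4864 Cryab UMIs of the Bst1/Slc4a11 set. By median, Cryab stood at 115 and 99.3 UMIs per 10000 in that set, against 127 and 94.3 in the Slc14a2/Corin set.

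**Figure D2:**
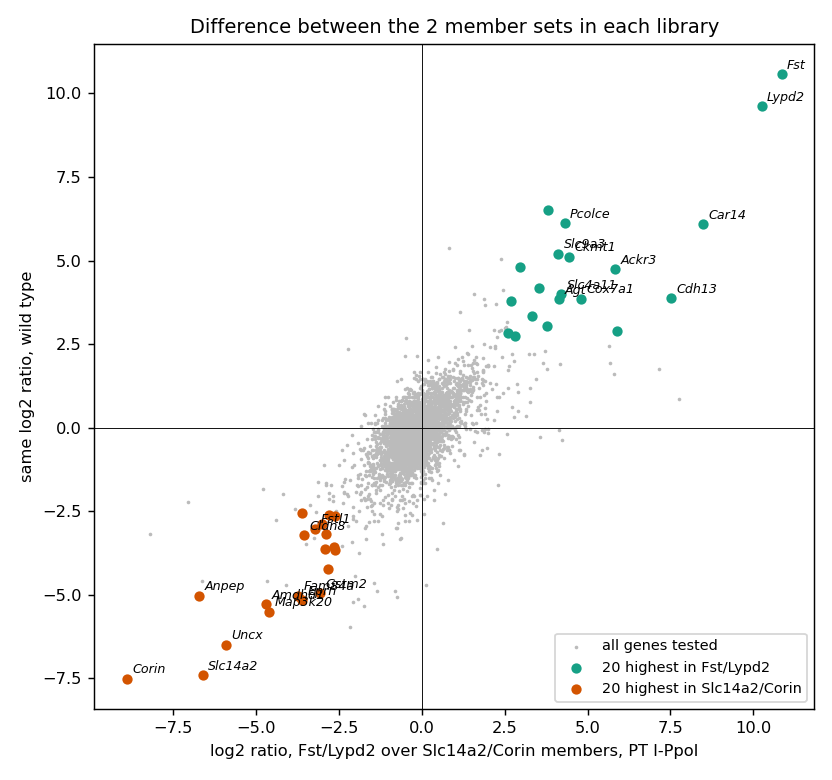
Each point is 1 of 3787 genes, placed by its log2 ratio of the Fst/Lypd2 set over the Slc14a2/Corin set, with PT I-PpoI on the x axis and wild type on the y axis; coloured points are the 20 genes with the largest difference each way in both libraries. Car14 and Pcolce lie at the upper right and Uncx and Anpep at the lower left, and Fst, Lypd2, Slc4a11, Slc14a2 and Corin stand apart because they define the sets.

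Against the other kept barcodes, 911 of 14606 compared genes (6.24%) were at least 2-fold higher in members in both libraries and 2126 (14.6%) at least 2-fold lower; the lower count includes genes at 0 in members, whose ratio rests on the prior count. The 20 leading genes included all 6 rule genes. Of the rest, Angpt2 (chr8:18690263-18741562) stood at 417 CPM (385 to 451) and 561 CPM (503 to 624) against 6.72 and 5.21 in the other barcodes. Phgdh, the first enzyme of serine synthesis, stood at 503 and 493 CPM against 13.7 and 14.7. Frzb and Spon1, which encode a secreted Wnt antagonist and a matrix protein, stood at 111 and 139 CPM and at 156 and 161 CPM, against 3.38 CPM or less and 4.27 CPM or less. Slc39a8, a zinc and manganese importer, stood at 105 and 244 CPM against 3.04 and 10.8.

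**Figure D3:**
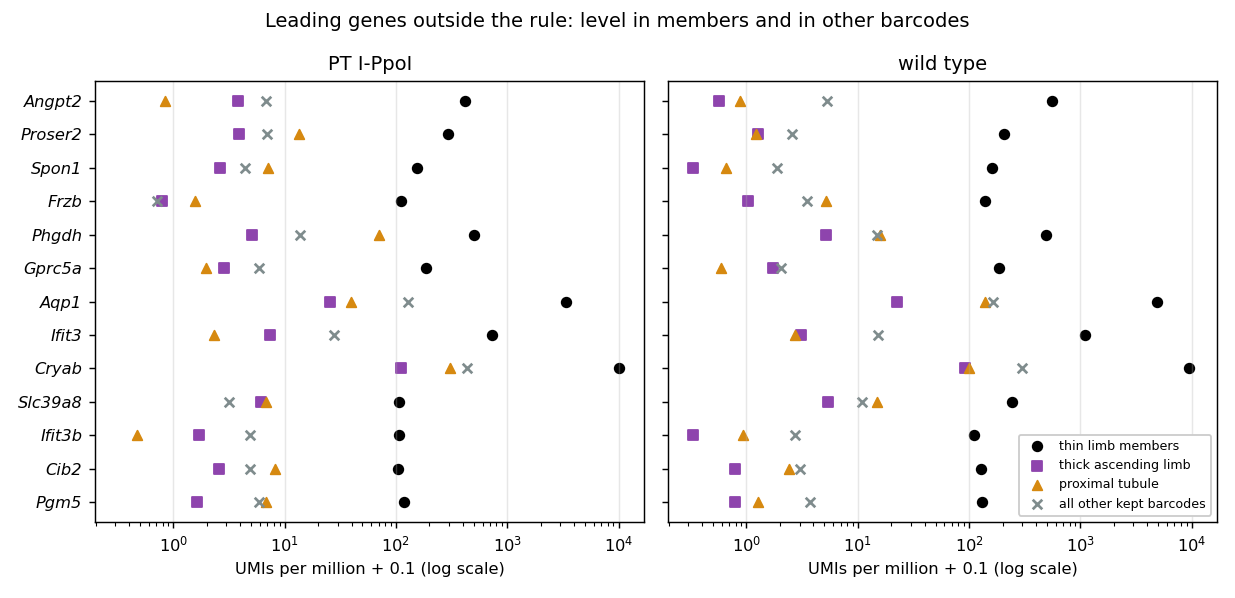
Levels in CPM + 0.1 on a log axis for leading genes outside the rule, in thin limb members (circles), thick ascending limb barcodes (squares), proximal tubule barcodes (triangles) and all other kept barcodes (crosses). In both libraries the member value lies to the right of the other 3 for every gene shown, with Cryab and Aqp1 furthest right.

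Of 33 nephron transcription factor genes, 10 were at least 2-fold higher in members in both libraries and 8 lower, beside 6.24% and 14.6% of all compared genes. Pax2 and Pax8, factors of the nephron lineage, stood at 312 and 438 CPM and at 310 and 436 CPM, against 54.9 and 26.9 and against 48.5 and 40.9. Hoxb7 stood at 231 and 307 CPM against 63.5 and 37.7, and Irx2 at 101 and 159 against 32.7 and 8.94. Tfap2b, a distal tubule factor, stood at 12.9 and 1.66 CPM against 150 and 39.5, and Gata3, a collecting duct factor, at 6.76 and 0 against 80.6 and 25.3.

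Osmotic response genes were higher for 4 of 10 members of their list and lower for 1, beside 6.24% and 14.6% of all compared genes. The 4 include Cryab and Akr1b3, which were already counted above among the thin limb markers outside the rule. Slc6a12, the betaine transporter, stood at 32.5 and 19.9 CPM against 2.08 and 0.82, and Slc6a6, the taurine transporter, at 640 and 763 CPM against 238 and 246. Nfat5, the transcription factor that drives the osmotic response, stood at 202 and 226 CPM against 104 and 75.4, and Slc5a3, the myo-inositol transporter, at 214 and 196 CPM against 390 and 118. Of 19 transport genes, a list without the rule gene Slc14a2, 9 were at least 2-fold lower in members in both libraries, beside 14.6% of all compared genes. Only Aqp1 of that list was higher in both.

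Immediate early genes were higher in members for 17 of 28 list genes in both libraries and lower for 1, beside 6.24% and 14.6% of all compared genes. Fos stood at 2425 and 2262 CPM against 493 and 311, Socs3, a feedback inhibitor of cytokine signalling, at 207 and 231 against 24.7 and 14.6, and Atf3, a stress-induced transcription factor, at 688 and 465 against 118 and 74.3. The lower gene was Egr3, which had 0 UMIs in members against 1.71 and 2.05 CPM in the other barcodes, below the level that 3 UMIs over all members of a library make, so the difference was not detectable at this depth. Klf2, best known from endothelium, stood at 164 and 46.5 CPM against 290 and 209. The kidneys had been digested at 37 °C per the labels, and the part of that step in these levels was not tested.

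Ifit3 was the leading gene of the interferon list. It belongs to a family of interferon-induced proteins that bind foreign RNA, and its promoter and that of its neighbour Ifit3b are shown because both genes were among the 20 leading genes while most of the list was not high. The lines give the 250 bases before the RefSeq start on GRCm38.p6, on the plus strand, 5′ to 3′, with capitals on matches to GAAA, any 2 bases and GAAA again (either strand), the core of the interferon-stimulated response element. They lie at chr19:34583279-34583528 for Ifit3, chr19:34607707-34607956 for Ifit3b and chr19:34640639-34640888 for Ifit1, a member of the same family that was hardly read.
Ifit3: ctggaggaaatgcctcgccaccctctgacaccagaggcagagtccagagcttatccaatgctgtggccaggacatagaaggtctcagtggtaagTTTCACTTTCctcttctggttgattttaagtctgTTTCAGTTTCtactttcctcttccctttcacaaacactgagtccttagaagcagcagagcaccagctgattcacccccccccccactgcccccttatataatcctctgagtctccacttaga
Ifit3b: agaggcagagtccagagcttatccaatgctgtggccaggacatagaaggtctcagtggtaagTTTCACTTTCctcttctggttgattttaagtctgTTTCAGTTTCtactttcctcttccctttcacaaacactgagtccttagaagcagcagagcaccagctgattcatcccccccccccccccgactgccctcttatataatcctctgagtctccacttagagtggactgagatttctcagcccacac
Ifit1: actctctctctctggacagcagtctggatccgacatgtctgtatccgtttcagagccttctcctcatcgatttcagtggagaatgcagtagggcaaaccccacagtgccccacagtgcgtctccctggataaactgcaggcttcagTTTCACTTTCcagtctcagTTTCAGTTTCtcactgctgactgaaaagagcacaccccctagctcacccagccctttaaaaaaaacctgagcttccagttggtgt
Each of the 3 windows held 2 matches, at 156 to 147 and 122 to 113 bases before the start in Ifit3, and at 104 to 95 and 85 to 76 bases before it in Ifit1. The 2 windows of Ifit2, which was higher in members, held no match, and that of Isg15, which was hardly read, held 3. Ifit3 and Ifit3b shared a run of 169 identical bases, and reads of such close copies may not be told apart. Of 32851 promoter windows of the same length, 978 (2.98%) held a match, which is a description of letters and not a site.

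Ifit3 stood at 728 CPM (685 to 772) and 1094 CPM (1012 to 1180) against 27.9 and 15.0 in the other kept barcodes and 7.26 and 3.01 in the thick ascending limb. It was read in 55 of 62 and 45 of 50 members. It was highest in the Slc14a2/Corin set, with a median of 17.3 and 17.2 UMIs per 10000 against 1.84 and 3.53 in the Fst/Lypd2 set. After thinning to 1000 UMIs, Ifit3 was read in 66.7% (43.0 to 85.4%) and 73.1% (52.2 to 88.4%) of the Slc14a2/Corin set, against 0.356% and 0.399% of thick ascending limb barcodes. Ifit3b stood at 107 and 110 CPM and Ifit2 at 113 and 139 CPM against 15.6 and 9.61.

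The rest of the interferon list did not follow Ifit3. Of 30 genes, 3 were at least 2-fold higher in members than in the other barcodes in both libraries, namely Ifit2, Ifit3 and Ifi27, and 14 at least 2-fold lower. Of all compared genes 6.24% were higher and 14.6% lower. Isg15, a ubiquitin-like interferon product, had 5 and 1 UMIs over all members, and Ifitm3, a membrane protein that blocks viral entry, stood at 15.6 and 14.9 CPM against 408 and 287. The order of Ifit3 over its relatives was the same in both libraries, and Ifit3 itself was not higher in PT I-PpoI (ratio -0.59, and -0.39 and 0.12 within the Fst/Lypd2 and Slc14a2/Corin sets). Genes of major histocompatibility complex (MHC) class II were lower in members for 6 of 7, beside 14.6% of all compared genes. The rule kept barcodes with Ptprc, Cd79a or Pecam1 out of the members and left them among the other barcodes. This favours low member values for genes of immune and endothelial cells, and its part in both lower counts was not tested.

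Between the libraries, 421 of 8749 compared genes (4.81%) were at least 2-fold higher in PT I-PpoI members and 246 (2.81%) at least 2-fold lower, with a median ratio of -0.02 over all compared genes. These counts describe 2 libraries whose members differed in depth and in their mix of sets, so several values are also given within sets. Within the Fst/Lypd2 set 9.2% of 6551 genes were higher and 3.47% lower, and within the Slc14a2/Corin set 5.26% of 5360 were higher and 3.38% lower. In thick ascending limb barcodes 3.84% of 12268 genes were higher and 4.22% lower.

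Several ratios over all members differed from those within single sets, and the part of set mix and of depth in this was not tested. Spp1 stood at 10201 and 4494 CPM over all members, a ratio of 1.18, but the ratio was -0.01 within the Fst/Lypd2 set and 0.64 within the Slc14a2/Corin set. The median ratio of the 31 oxidative phosphorylation genes was 0.36 over all members, 0.02 within the Fst/Lypd2 set and 0.09 within the Slc14a2/Corin set, and none passed 2-fold either way. Car14 had a ratio of 1.65 over all members and 0.44 within the Fst/Lypd2 set, where nearly all of its UMIs lay. Cdh13, a cadherin without a cytoplasmic domain, had a ratio of 2.06 over all members and 0.94 in the Fst/Lypd2 set, and Cox7a1, a cytochrome oxidase subunit, 1.94 and 0.80.

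Hspa1a was higher in PT I-PpoI in each of the 3 sets. Hspa1a, an inducible Hsp70 gene on chromosome 17, had a median of 8.14 UMIs per 10000 (0 to 42.6) in PT I-PpoI members and 2.08 (0 to 8.95) in wild-type members, and was read in 60 of 62 and 34 of 50. The ranges overlapped, with the PT I-PpoI median just under the highest wild-type member. The summed level was 1184 and 305 CPM, a ratio of 1.95 (1.74 to 2.18), and it was 1.57, 1.87 and 2.14 within the Fst/Lypd2, Slc14a2/Corin and Bst1/Slc4a11 sets. The same ratio was 2.05 in the thick ascending limb and 2.82 in all kept barcodes outside the members, so it was not particular to thin limb members. Its near-identical neighbour Hspa1b, from which reads may not be told apart, had a ratio of 1.55, and of 1.34, 1.47 and 1.28 within the 3 sets.

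Of 20 heat-shock chaperone genes that could be compared, 4 were at least 2-fold higher in PT I-PpoI members (Hspa1a, Hspa1b, Hspb1 and Dnajb1) and none lower. Of all compared genes 4.81% were higher and 2.81% lower. The median ratio of the list was 0.09. Hspb1, the small heat-shock protein Hsp27, stood at 556 and 179 CPM, a ratio of 1.63 that was 0.79 and 0.67 within the Fst/Lypd2 and Slc14a2/Corin sets and 2.84 in the Bst1/Slc4a11 set, where wild type had 7 UMIs. Dnajb1, an Hsp40 co-chaperone, stood at 116 and 44.8 CPM, and its ratio was 1.61 in the Fst/Lypd2 set and -0.21 in the Slc14a2/Corin set. The constitutive chaperone genes Hspa8 and Hsp90ab1 had ratios of 0.49 and 0.11.

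Tubular injury genes were at least 2-fold higher in PT I-PpoI members for 10 of the 21 that could be compared and lower for none. Of all compared genes 4.81% were higher and 2.81% lower. The median ratio of the list was 0.85. The number of higher list genes was 7 of 18 within the Fst/Lypd2 set, beside 9.2% of all genes compared there. It was 3 of 14 within the Slc14a2/Corin set, beside 5.26%, and 6 of 25 in the thick ascending limb, beside 3.84%. The list median was 0.41 without the members under 20 Cryab UMIs per 10000, 0.14 with at least 3 rule genes and -0.43 when the rule was applied after thinning, so it moved with which barcodes were members. The summed level of S100a6, a calcium-binding protein gene, was 1552 CPM against 161 CPM, which gives a ratio of 3.26 (2.98 to 3.58), and the gene was read in 43 of 62 and 18 of 50 members. In the Bst1/Slc4a11 set its median was 22.1 UMIs per 10000 (0 to 112) and 1.17 (0 to 59.1), where the ranges overlapped. The richest PT I-PpoI member, in the Fst/Lypd2 set, held 31.0% of the S100a6 UMIs and the richest wild-type member 28.9%. Vim, Clu, C3 and Vcam1 stood at 31.1, 45.3, 36.5 and 22.99 CPM in PT I-PpoI against 3.32, 8.30, 3.32 and 1.66 CPM in wild type, where they had 5 UMIs or fewer each. Krt8 and S100a11, other genes of the list, had ratios of 0.07 and -0.04.

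**Figure D4:**
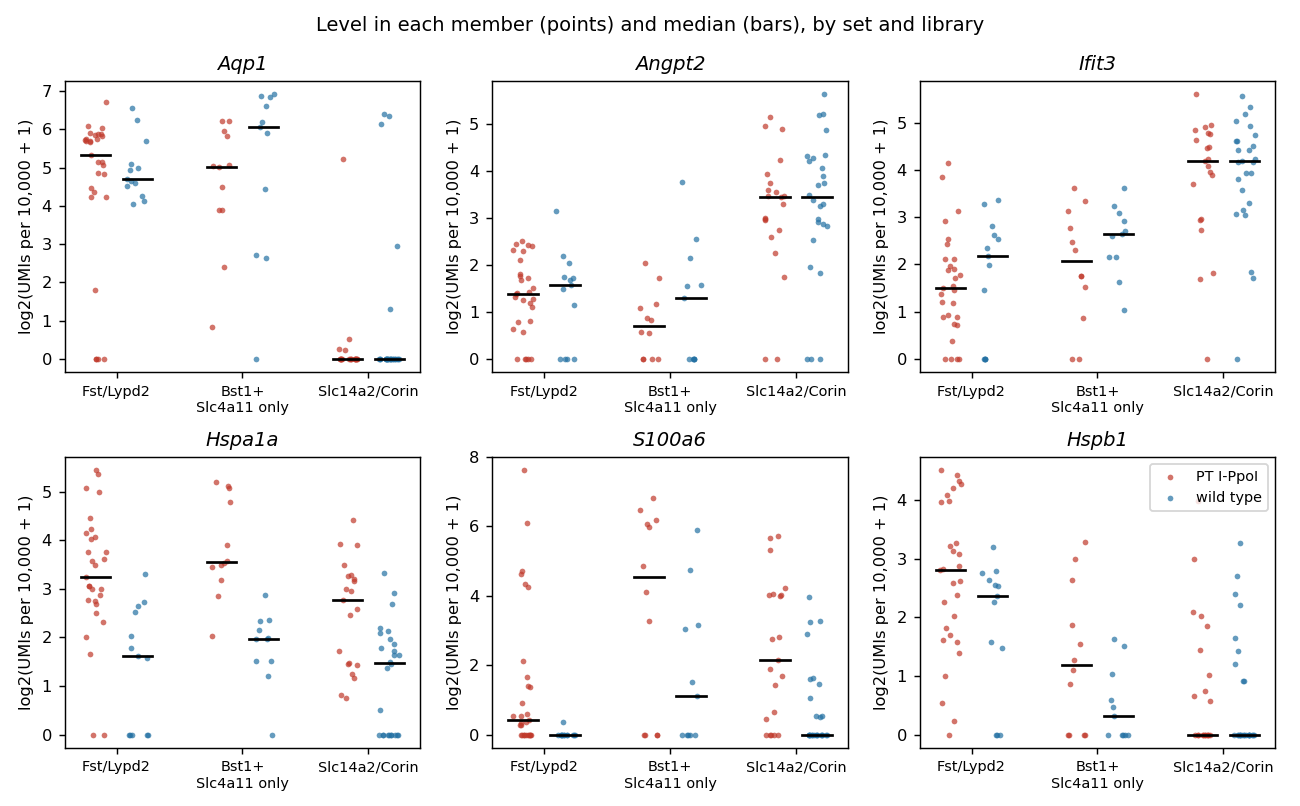
Each point is 1 member, placed by log2(UMIs per 10,000 + 1) of the gene named above each panel, with bars at the median; PT I-PpoI is red and wild type blue within each of the 3 sets. Aqp1, Angpt2 and Ifit3 differ by set more than by library, while the Hspa1a median is higher in PT I-PpoI in all 3 sets with overlapping points.

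Of the other genes named as higher in PT I-PpoI, Defb1, a secreted antimicrobial defensin, stood at 285 and 8.30 CPM, a ratio of 4.96. It was read in 31 of 62 and 4 of 50 members. However, 1 PT I-PpoI member held 58.2% of the PT I-PpoI UMIs of Defb1, and the ratio was 3.73 without that member. Apoe, a lipid carrier, had a ratio of 2.07, and of 0.92 without the PT I-PpoI member that held 56.1% of its UMIs in that library. Ptgds, a prostaglandin D synthase, had a ratio of 2.30, and of 0.60 within the Fst/Lypd2 set. The Slc14a2/Corin set held 10 and 2 Ptgds UMIs, too few to compare. The Bst1/Slc4a11 set held 74 and 0, with 73 of them in the same PT I-PpoI member that was richest in Apoe. Without that member the Ptgds ratio was 1.83. Tmsb4x, an actin-binding peptide gene, had a ratio of 1.89 and kept its sign within each set. In the Slc14a2/Corin set 1 PT I-PpoI member held 240 of the 349 PT I-PpoI UMIs of Tmsb4x. Over all members the Tmsb4x ratio was 1.40 without that member. In the Fst/Lypd2 set a few high PT I-PpoI members carried much of the 265 UMIs, against 8 UMIs in wild type. In thick ascending limb barcodes the Tmsb4x ratio was 0.45. Klf2 had a ratio of 1.80, with 1.30 and 2.36 within the 2 larger sets. Ppp1r1a, a thick ascending limb marker, had a ratio of 1.80. Within the Fst/Lypd2 set, which held 359 of its 406 and 42 of its 47 UMIs, the ratio was 0.52. In the Slc14a2/Corin set it was 2.50, on 40 and 5 UMIs. Ppp1r1a was not the only marker of another segment that was higher. At least 2-fold higher in PT I-PpoI members were 3 of 5 compared markers of the thick ascending limb (1 lower), 2 of 2 of the distal convoluted tubule, 2 of 3 of the connecting tubule and 2 of 3 of principal cells. Of all compared genes 4.81% were higher. The part of these markers in the other differences was not tested.

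DNA damage genes did not separate the libraries at this depth. Of 20 p53 target genes that could be compared, 2 were at least 2-fold higher in PT I-PpoI members, Phlda3 (34.5 and 11.6 CPM) and Zmat3 (27.7 and 9.96 CPM), and none lower, beside 4.81% and 2.81% of all compared genes, with a median of -0.13. Cdkn1a, the cell cycle inhibitor p21, stood at 89.3 and 99.6 CPM, and Gdf15 at 547 and 612 CPM, a ratio of -0.16. None of 19 genes of double-strand break repair passed 2-fold in either direction, with a median of -0.33. Among the activin and BMP genes, 5 of 25 were higher and 1 lower, while the list median was -0.25. Id2 and Id4 had ratios of 1.15 and 1.07, and the Bmp4 ratio of 1.28 rested on 11 UMIs in wild type.

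The genes named as lower in PT I-PpoI members included Slc34a1, Kap, Lrp2 and Miox, known from the PT. All 5 PT markers that could be compared were at least 2-fold lower, beside 2.81% of all compared genes. Slc34a1, the phosphate transporter of the proximal tubule, had 0 UMIs in PT I-PpoI members and 186 in wild-type members, at least 152-fold lower when the 0 is set to 3 counts. Acsm2, a mitochondrial acyl-CoA synthetase gene, had 0 and 90 UMIs, at least 73.6-fold lower. Kap, the kidney androgen-regulated protein gene, stood at 9.47 and 2416 CPM and was read in 9 of 62 and 50 of 50 members, a ratio of -7.95, and of -6.45, -8.01 and -5.19 within the Fst/Lypd2, Slc14a2/Corin and Bst1/Slc4a11 sets. Lrp2, the endocytic receptor megalin, stood at 4.06 and 105 CPM, and Miox, the enzyme that breaks down myo-inositol, at 4.06 and 148. A single wild-type member, in the Slc14a2/Corin set, was the richest in Slc34a1, Acsm2 and Kap. It held 78.0%, 74.4% and 78.0% of their UMIs over all wild-type members. The limits of 152-fold and 73.6-fold include that member. Without the wild-type member richest in each gene the Kap ratio was -5.84, and those of Acy3 and Spink1 went from -2.14 and -1.82 to -0.24 and -0.10.

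The same genes were lower in PT I-PpoI outside the members. The Slc34a1, Kap and Lrp2 ratios were -5.02, -8.06 and -5.09 in thick ascending limb barcodes. PT genes made up 0.0622% of wild-type member UMIs and 0.325% of the free RNA in wild-type barcodes of at most 100 UMIs, and 0.0025% and 0.0393% in PT I-PpoI. Scaled by those 8 PT genes, free RNA came to 6.37% and 19.2% of member UMIs. A single member in each library set these estimates, which were 1.41% and 5.44% without the member richest in PT gene UMIs. By set they were 1.696% and 6.03% in the Fst/Lypd2 set, 1.37% and 34.6% in the Slc14a2/Corin set and 35.9% and 4.33% in the Bst1/Slc4a11 set. Subtraction of the estimate over all members left no UMIs of Slc34a1, Akr1c21, Miox or Lrp2 in members of either library, so no ratio remained for these genes; a negative ratio after subtraction was a condition for naming the 12 lower genes and is no result. Kap had a ratio of -9.66 after subtraction. Afap1l1, the only one of the 12 whose wild-type UMIs were spread with 19.7% in the top member, stood at 28.4 and 101 CPM.

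**Figure D5:**
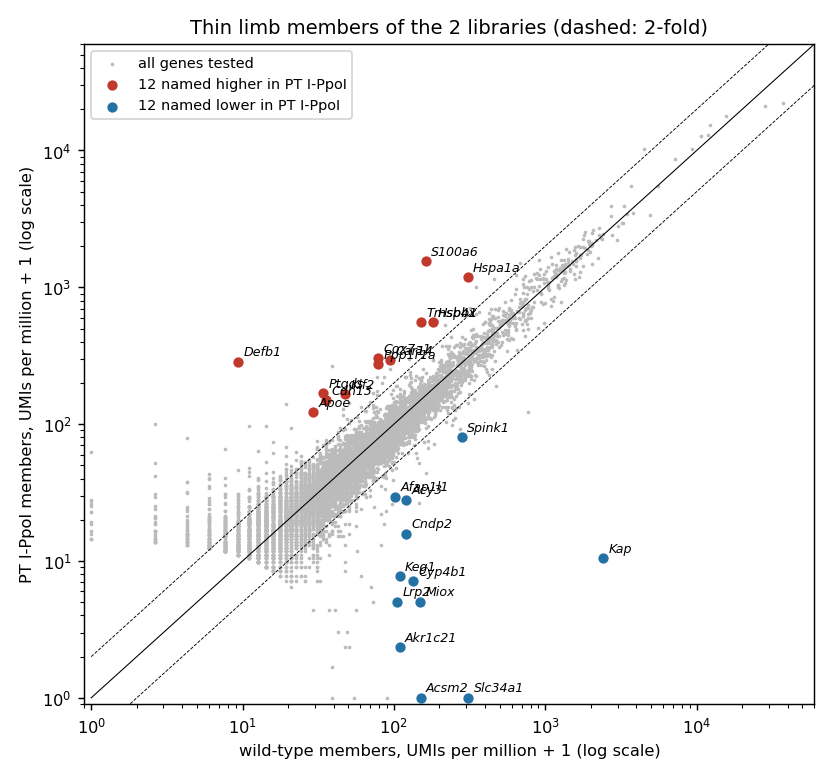
Each point is 1 of 8749 genes, placed by its summed level in wild-type members (x axis) and PT I-PpoI members (y axis), in CPM + 1 on log axes; dashed lines mark 2-fold. S100a6 and Hspa1a lie above the upper line at high levels, and Kap, Slc34a1 and Acsm2 lie far below the lower line.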

How the data were processed

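For each library the authors deposited raw UMI counts of 31053 genes, over 1737120 and 1979462 barcodes. Per the submitters' processing notes, the tools were Cell Ranger 3.1 and Seurat 3 and the build mm10, while the file headers name Cell Ranger 4; which version made the matrices could not be settled here. Libraries used 10x 3′ v3.1 chemistry, per the labels' protocols. The members, gene lists and tests were chosen with earlier results of these data known.

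UMI counts were summed over members per library and scaled to CPM. A ratio carries a prior of 0.5 count and needs 20 or more UMIs over both sums; against the other kept barcodes the prior was scaled to the totals. Ratios carry exact conditional binomial intervals, sums exact Poisson intervals and shares Clopper-Pearson intervals. Lists are described by counts past 2-fold and medians. Named genes had 100 CPM and 20 UMIs or more in the higher library, were read in 10 or more of its members, and had ratios of the same sign without the top member and after subtraction of free RNA (a condition that 4 lower genes left at 0 in both libraries met through the prior alone); the 12 largest and 12 smallest ratios were taken. The 20 leading genes had the largest smaller-of-2-libraries ratio over other barcodes at 100 CPM or more. Up to 4 genes per list were added, and other list genes were named after their values were seen. The 3 sets were also defined after the values were seen. Mitochondrial, ribosomal protein, haemoglobin, immunoglobulin, Y-linked, Xist and unnamed genes were left out of naming. Free RNA was profiled from barcodes of 100 UMIs or fewer. Scrublet, run through scanpy 1.11.5 at an expected rate of 0.06, marked 58 (1.14%) and 312 (3.00%) kept barcodes; marked barcodes were kept. The TMM factors of edgeR 4.0.16 served as an alternative scaling, with no edgeR test. Gene coordinates came from GENCODE M21 and promoters from RefSeq. The ratio and its interval were tested on simulated data. Some genes of the lists are not reported here by name.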

Additional observations from a re-analysis of the deposited data

How the results depend on the processing

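No paired analysis was possible because each group has 1 library. The member shares of 1.22% and 0.48% became 2.04% and 0.739% with a mitochondrial limit of 20%, 0.768% and 0.269% with 3 or more rule genes, and 0.473% and 0.259% after thinning to 1000 UMIs. They stayed within their intervals without doublets, with a minimum of 2000 UMIs and without members carrying other segments' transcripts. The counts of 421 higher and 246 lower genes became 1010 and 683 with 5 or more UMIs per gene, 146 and 81 with 50 or more, and 845 and 465 with the mean over members of each barcode's CPM; subtraction of free RNA gave 380 lower. TMM factors moved every ratio by 0.0095.

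Alternatives chosen after seeing the data kept to 1 set or to 3000 to 20000 UMIs. Shares were 0.571% and 0.125% for the Fst/Lypd2 set and 0.414% and 0.25% for the Slc14a2/Corin set. In the depth window the shares were 0.843% and 0.551%, and 143 genes were higher and 154 lower, of the 3609 that could be compared there. Signs reversed for Tmsb4x (-0.26) and Acy3 (0.066) after thinning, and for Ppp1r1a (-0.65) and Acy3 (0.55) in the depth window. The cause was not tested. In the Slc14a2/Corin set the values of Cdh13 (-2.70), Cox7a1 (-0.14) and Car14 (-1.97) were also negative. They rested on 0 and 2, 6 and 5, and 0 and 1 UMIs. These counts lie below the minimum set for a ratio, so no reversal can be read from them. The Hspa1a ratio ran from 1.57 to 2.26 over all alternatives and that of S100a6 from 2.23 to 7.004.

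With 62 and 50 members, genes under about 20 UMIs could not be compared, and no interval covers differences between mice.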

Other observations

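Thin limb members carried several signalling genes that the report does not describe. Wnt7b, a Wnt ligand gene, stood at 79.1 and 101 CPM in members against 10.6 and 3.12 CPM in the other kept barcodes, and Wnt5a at 66.3 and 29.9 CPM against 16.1 and 4.50. Ankrd1 and Amotl2, genes known to respond to the Hippo pathway, stood at 122 and 118 CPM against 7.07 and 5.24, and at 343 and 561 CPM against 61.2 and 35.9. Of 23 Notch, Wnt and Hippo genes, 7 were at least 2-fold higher in members in both libraries and 6 lower, against 6.24% and 14.6% of all compared genes.

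Among prostaglandin genes, Slco2a1, the prostaglandin uptake carrier, stood at 271 and 143 CPM in the Slc14a2/Corin set and at 25.5 and 26.1 CPM in the Fst/Lypd2 set. The matrix genes Timp3 and Col18a1 stood at 2631 and 2055 CPM and at 391 and 342 CPM over all members, and Col4a3 and Col4a4, chains of basement membrane collagen, at 181 and 204 CPM and at 362 and 495 CPM. Below the UMI minimum, 2 of 478 PT I-PpoI barcodes and 0 of 2199 wild-type barcodes with at least 500 but under 1000 UMIs met the member rule.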
